A study of Caenorhabditis elegans with 16 samples.

Results

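The genes that build sensory cilia were followed in mixed-stage embryos of *Caenorhabditis elegans*, in the wild-type strain N2 and in *fbxa-215* mutants, each after growth at 20 °C or 25 °C. They are 40 genes chosen by name for a known place in the cilium or in intraflagellar transport (IFT). All 40 were found among the 19637 gene names of the deposited comparison tables and in the count tables, which held 21882 genes. By role they are 13 genes of the IFT-B complex, 4 of the IFT-A complex, 4 of the kinesin motors, 2 of the IFT dynein motor, 6 of the BBSome, 7 of the transition zone, the transcription factor gene *daf-19*, and 3 genes for a ciliary kinase, a small GTPase and a tubulin.

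In the worm, cilia form only at the dendrite endings of certain sensory neurons, which are born and mature during embryonic development. Kinesin motors carry IFT-B and IFT-A particles from the base of the cilium to its tip, and a dedicated dynein carries them back, with the BBSome holding the trains together and linking them to membrane cargo. The transition zone is the gate at the ciliary base. DAF-19, a transcription factor of the RFX family, is known to switch on many of these genes through a promoter motif called the X box, and worms that lack it have no cilia.

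The 4 groups were wild type at 20 °C, *fbxa-215(syb4404)* mutants of the strain SX3678 at 20 °C, wild type at 25 °C and the same mutants at 25 °C, with 4 libraries of polyadenylated RNA in each and 16 in all. The mutants were a single strain with a single allele of *fbxa-215*, an F-box gene. The parents of both strains hatched from synchronised cultures at 20 °C, were then grown at either temperature, and gave their embryos by bleaching, 56 h from plating for the 20 °C culture and 47 h for the 25 °C culture. Temperature, hours after plating and collection batch therefore changed together and cannot be told apart. Whether the 4 libraries of a group came from separate cultures was not stated, so p-values measure the spread between these libraries, which may be technical. The whole embryo was sequenced, so fewer ciliated neurons and less RNA in each of them cannot be told apart.

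Library totals ranged from 10001670 to 16777296 counts. The mutated gene was read first as a check of the strain labels. In wild type *fbxa-215* stood at 230.2 ± 7.70 CPM in the 20 °C libraries and 162 ± 9.47 CPM in the 25 °C libraries (CPM, counts scaled to library size after TMM scaling; mean ± SD, n = 4), and no mutant library held more than 1 count of it (exact two-sided permutation test at each temperature, p = 0.0286, the smallest that 4 against 4 libraries allow). Transcripts of adults, yolk proteins and sperm proteins among them, summed to between 1.27 and 3.78 CPM in the 16 libraries. Neuronal markers, synaptic and neuropeptide-processing genes in a list of 18, summed to 753 ± 9.55 CPM in wild type at 20 °C. Transcripts of these genes were thus present, and whether they came from neurons alone was not tested.

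The genes of kinesin-II and *daf-19* stood well above the rest. Levels were compared between genes after division by exon length (TPM, scaled to the same sum in every library). In wild type at 20 °C, *klp-11*, *klp-20*, *daf-19* and *kap-1* stood at 53.1, 39.3, 28.8 and 19.7 TPM, with no overlap between neighbours in this order, and together held 71% of the summed CPM of the 40 genes. The next gene, *dyf-11*, stood at 5.92 ± 0.741 TPM (SD, n = 4), and from there the order ran down without clear steps: of the 35 genes from *dyf-11* to *bbs-8*, nearly all overlapped their neighbour. The median of the 40 was 1.48 TPM, and the lowest was *tba-5* at 0.0153 TPM. The median stood at 0.796 TPM in mutants at 20 °C, at 6.92 TPM in wild type at 25 °C and at 5.52 TPM in mutants at 25 °C, and *klp-11* was the highest of the 40 in all 4 groups.

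**Figure D1:**
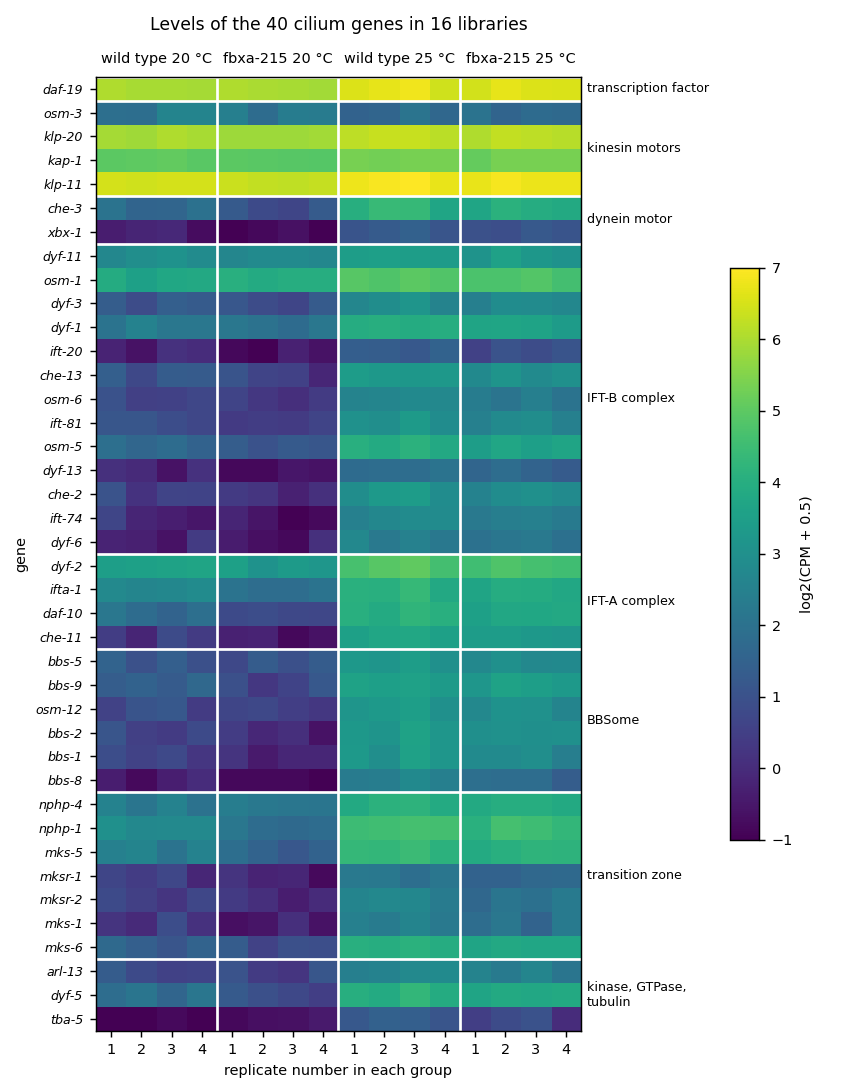
Level of each of the 40 genes (vertical, grouped by role) in each of the 16 libraries (horizontal, replicates 1 to 4 of each group), coloured by log2(CPM + 0.5). *daf-19* and the kinesin genes *klp-11*, *klp-20* and *kap-1* are bright in every library, and nearly all other genes are brighter in the 25 °C libraries than in the 20 °C libraries.

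Between the growth conditions the cilium genes rose. In wild type, all 40 were tested and 39 were higher at 25 °C, where 34.9% of the 11578 genes tested were called higher, and 1 was lower, where 31.3% were called lower (edgeR quasi-likelihood test, called at a Benjamini-Hochberg adjusted p under 0.05 with no minimum fold). The median change of the 40 was 2.36 on the log2 scale, a 5.13-fold rise, against a median of 0.0023 over all genes tested. Of the 39, 34 rose more than 2-fold, where 2316 of the 11578 genes tested were called with such a rise. Some of the 40 passed the filter on low counts only through the 25 °C libraries and so had to differ. Among the 29 that also passed it on the 20 °C libraries alone, 28 were higher and 1 lower, with a median of 2.12. In mutants 39 were tested, 38 were higher against 36.3% of all 11558 genes, 1 was lower against 33%, and the median was 2.79 against 0.0043. Among the same 29 genes 28 were higher in mutants and 1 lower, with a median of 2.47. The genes at the lowest level at 20 °C changed most: across the 40 genes, the rank correlation between TPM in mutants at 20 °C and the change in wild type was -0.91 (Pearson's r = -0.81 on log2 TPM). Across the 29 genes it was -0.90 (r = -0.81). Both describe genes that share the same libraries.

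**Figure D2:**
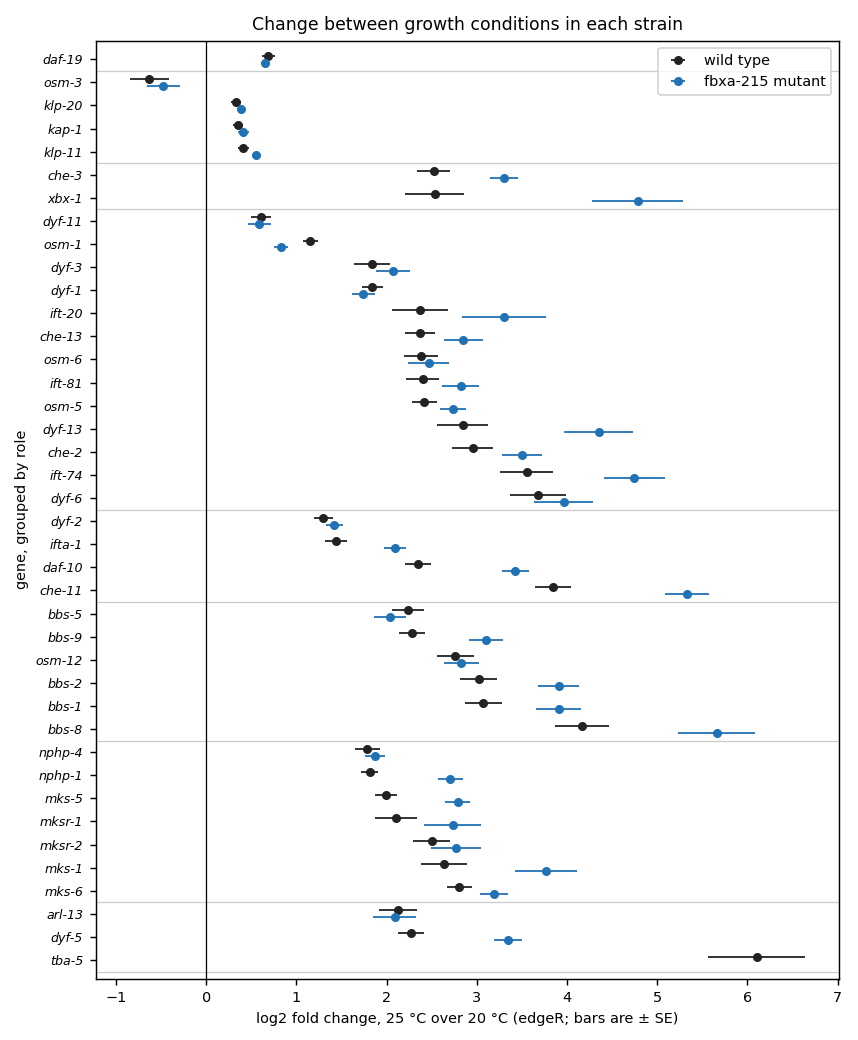
log2 fold change between 25 °C and 20 °C (horizontal) of each gene (vertical, grouped by role) in wild type and in mutants, with bars of ± 1 SE from edgeR. All points except those of *osm-3* lie to the right of 0, those of the other kinesin genes, *daf-19* and *dyf-11* closest to it. *tba-5* was not tested in mutants.

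Between the strains at 20 °C the cilium genes were lower in mutants. Of the 29 tested, 11 were called lower and 0 higher, or 37.9% lower, where 9.66% of the 10470 genes tested were lower and 7.65% higher (edgeR, adjusted p under 0.05). At an unadjusted p under 0.05 there were 18, a count not made over all genes here or below. The median change was -0.54 against 0.0015 over all genes, and 28 of the 29 lay below 0, where 50.4% of all genes lay above 0. Of the 11, 5 fell more than 2-fold, where 89 of the 10470 genes tested were called with such a fall. DESeq2 called 8 and limma-voom 10, all lower, beside 1529 and 1820 of 10471 genes in either direction, *fbxa-215* included. The 11 genes too low for this test were *che-11*, *dyf-6*, *dyf-13*, *xbx-1*, *ift-20*, *ift-74*, *bbs-1*, *bbs-8*, *mks-1*, *mksr-1* and *tba-5*. With all 16 libraries in 1 fit, which tests the 40 together and shares their spread, 18 were called lower and 0 higher, with a median of -0.79. Over all genes that fit called 1541 of 12117 in either direction.

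At 25 °C fewer of the cilium genes were called between strains. All 40 were tested, 3 were lower in mutants and 0 higher, or 7.5% lower, where 2.03% of the 11944 genes tested were lower and 2.09% higher (edgeR, adjusted p under 0.05), and 23 had an unadjusted p under 0.05. The median was -0.30 against -0.0023 over all genes, with 39 of 40 below 0, where 49.3% of all genes lay above 0, and none of the 3 past 2-fold. DESeq2 called 5 and limma-voom 3, beside 625 and 488 of 11945 genes in either direction. This count moved with single libraries, as did the count over all genes, 494 of 11945 in the main fit, *fbxa-215* included. It was 0 without replicate 1 or replicate 4 of the mutants (15 and 19 at an unadjusted p under 0.05). Those fits called 152 of 12094 and 133 of 12097 genes. It was 1 without replicate 3 of the mutants or replicate 1 of the wild type, beside 280 of 12107 and 264 of 12064 genes. It was 2 without replicate 2 of the wild type, beside 337 of 12075, and 6 without replicate 4 of the wild type, beside 844 of 12089.

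The difference between the 2 strain effects was tested as an interaction over the 16 libraries. Here 3 of the 40 were called, all with a smaller fall at 25 °C (higher in 0.47% and lower in 0.693% of 12116 genes tested), 14 had an unadjusted p under 0.05, and the median was 0.36 against -0.0081 over all genes. The 3 were *daf-10*, *dyf-5* and *nphp-1*. DESeq2 called 6 and limma-voom 0 (13 at an unadjusted p under 0.05), beside 305 and 97 of 12117 genes in either direction. The count was 0 without replicate 1 of the wild type at 20 °C or without replicate 2, 3 or 4 of the mutants at 20 °C (11, 10, 14 and 12 at an unadjusted p under 0.05). Over all genes those fits called 40 of 12339, 29 of 12241, 19 of 12238 and 62 of 12334, against 141 of 12117 in the main fit. It was 1 without replicate 2, 3 or 4 of the mutants at 25 °C, beside 54 of 12227, 62 of 12300 and 44 of 12223 genes. Without replicate 3 of the wild type at 25 °C it was 5, beside 420 of 12287.

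**Figure D3:**
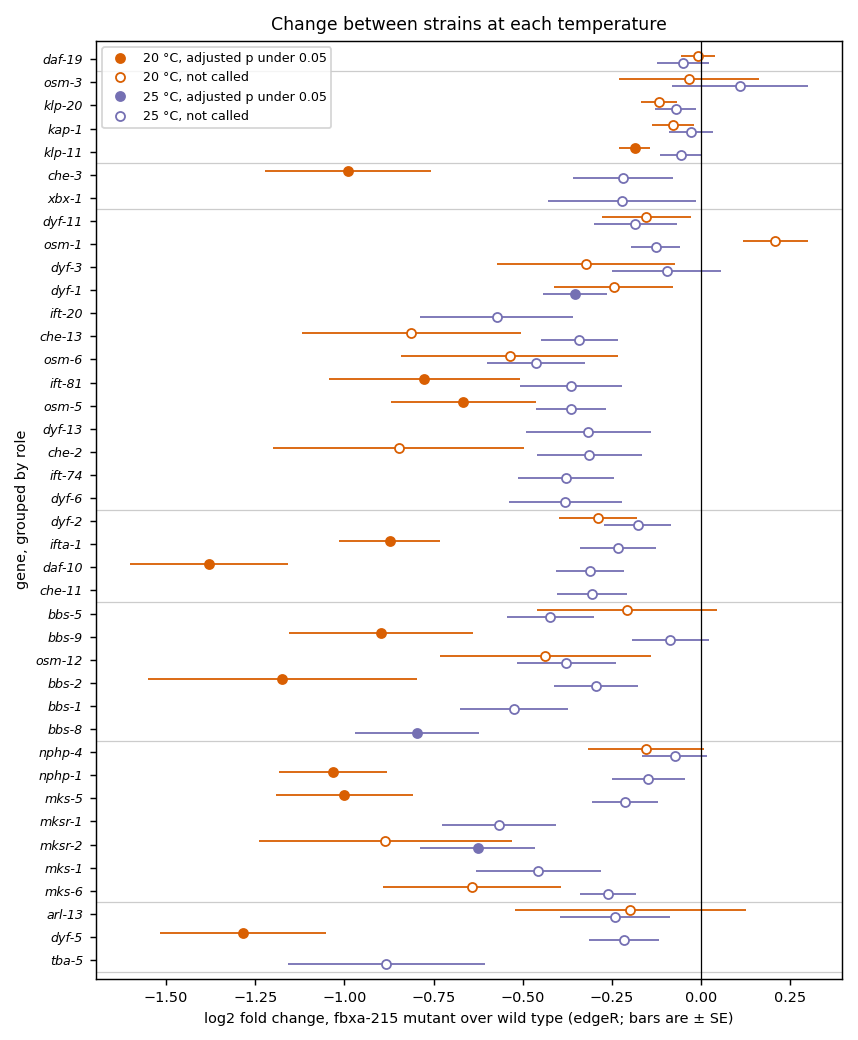
log2 fold change of each gene (vertical, grouped by role) between mutants and wild type (horizontal) at 20 °C and at 25 °C, with bars of ± 1 SE from edgeR and filled points for an adjusted p under 0.05. Nearly all points lie to the left of 0, the 11 called genes at 20 °C between -1.38 and -0.19 and the 3 at 25 °C between -0.80 and -0.35. The 11 genes not tested at 20 °C have only the 25 °C point.

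*daf-19*, the RFX factor gene (chromosome II, 10157520 to 10169346, WBcel235), rose with the growth condition and did not pass the test between strains. Its level was 65.04, 61.9, 60.8 and 60.5 CPM in the 4 wild-type libraries and 65.5, 62.3, 61.2 and 58.9 CPM in the 4 mutant libraries at 20 °C. At 25 °C it was 95.1, 104.4, 112 and 86.1 CPM in wild type and 87.4, 103, 94.8 and 92.4 CPM in mutants. The 2 strains overlapped at both temperatures, and every library at 25 °C lay above every library at 20 °C. The rise was 0.69 ± 0.071 on the log2 scale in wild type and 0.66 ± 0.048 in mutants (SE; edgeR adjusted p = 4.61e-07 and 9.44e-12). Between strains the change was -0.0091 ± 0.048 at 20 °C and -0.050 ± 0.073 at 25 °C (adjusted p = 0.923 and 0.725). The counts were whole, within 0.01, in 3 of the 16 libraries for *daf-19*, 3 for *klp-20*, 2 for *klp-11* and 5 for *kap-1*, so the estimates for these genes include divided reads.

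The kinesin-II genes had the smallest rises with the growth condition. Kinesin-II, built of KLP-11, KLP-20 and the accessory protein KAP-1, moves IFT trains along the proximal cilium. Its genes rose by 0.41, 0.33 and 0.35 on the log2 scale in wild type and by 0.55, 0.39 and 0.41 in mutants, all called, each less than 2-fold. *klp-11* (chromosome IV, 8756735 to 8762066) was at 89.3, 84.8, 88.6 and 89.3 CPM in wild type and at 81.3, 76.4, 74.4 and 78.7 CPM in mutants at 20 °C, the mutants below the wild type without overlap (log2 fold change -0.19 ± 0.043, adjusted p = 0.00401). It was the smallest of the 11 falls called at 20 °C. At 25 °C the 2 strains overlapped for *klp-11* (-0.056 ± 0.060, adjusted p = 0.612), and *klp-20* and *kap-1* were called at neither temperature. In the annotation, 2349 exon bases of *klp-11* are shared with the gene F20C5.11, which was not among the counted genes, so reads of the 2 cannot be told apart.

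*osm-3* was the exception among the 40 (chromosome IV, 3796300 to 3801052). It encodes the kinesin that extends the distal segment of the cilium on its own. It stood at 3.31, 3.24, 5.54 and 5.61 CPM in wild type at 20 °C and at 2.35, 2.54, 3.68 and 2.69 CPM at 25 °C, with replicates 1 and 2 at 20 °C inside the range of the 25 °C libraries. In mutants the values were 4.96, 3.08, 4.63 and 4.54 CPM at 20 °C and 3.64, 2.46, 3.01 and 2.80 CPM at 25 °C, again with overlap. It was called lower at 25 °C in both strains, with log2 fold changes of -0.63 ± 0.22 in wild type and -0.48 ± 0.18 in mutants (adjusted p = 0.0194 and 0.0235). The call was lost in wild type without replicate 3 or 4 at 20 °C or replicate 1 at 25 °C (adjusted p up to 0.0735 over the 8 libraries left out), and in mutants without replicate 1 at 20 °C or replicate 2 at 25 °C (up to 0.0644). Between strains it was called at neither temperature (-0.033 ± 0.20 and 0.11 ± 0.19; adjusted p = 0.93 and 0.772). At 25 °C it was the gene with the lowest TPM of the 40 in wild type, 1.44. Its exons share 200 bases with the neighbouring genes *algn-14* and K09B3.1 on an unstranded count.

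Because *klp-11*, *klp-20*, *daf-19* and *kap-1* held 71% of the summed CPM in wild type at 20 °C, the sum was split after the levels were seen. *osm-3*, at 4.42 CPM there, was kept with the other kinesin genes. *daf-19* and the 4 kinesin genes together stood at 247 ± 6.34 CPM in wild type and 230.9 ± 5.61 in mutants at 20 °C, and at 335 ± 25.7 and 318 ± 18.4 CPM at 25 °C (SD, n = 4). The other 35 genes summed to 94.8 ± 5.69 and 68.2 ± 6.22 CPM at 20 °C, and to 382 ± 30.8 and 312 ± 23.2 CPM at 25 °C. At 20 °C the 35 genes ranged from 89.1 to 102.6 CPM in wild type and from 63.8 to 77.1 CPM in mutants, without overlap. At 25 °C they ranged from 351 to 424 CPM in wild type and from 287 to 338 CPM in mutants, also without overlap. The sums of the 5 genes overlapped between strains at both temperatures.

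The IFT dynein genes rose with the growth condition, and the heavy chain was lower in mutants at 20 °C. *che-3* (chromosome I, 8062007 to 8081671) encodes the heavy chain, the motor that returns IFT trains to the ciliary base. It was at 3.67, 2.47, 2.54 and 3.47 CPM in wild type and 1.89, 1.23, 1.09 and 1.95 CPM in mutants at 20 °C, without overlap, a change of -0.99 ± 0.23 on the log2 scale (1.99-fold lower, adjusted p = 0.00487). At the higher temperature it was at 15.8, 20.6, 20.1 and 12.4 CPM in wild type and 12.5, 16.7, 14.96 and 14.1 CPM in mutants, with overlap and a change of -0.22 ± 0.14 (adjusted p = 0.373). From 20 °C to 25 °C it rose by 2.52 ± 0.19 in wild type and 3.30 ± 0.16 in mutants (adjusted p = 8.65e-09 and 2.77e-15).

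*xbx-1*, for the light intermediate chain of the same dynein (chromosome V, 14980237 to 14982671), had few reads at 20 °C. It had 4, 5, 6 and 1 counts in the wild-type libraries and 0, 1, 2 and 0 in the mutant libraries, 16 against 3 in sum. Scaled for library size, that is a ratio of 6.24 of wild type to mutant with a counting interval of 1.79 to 33.4 (95%, exact, counting error only). More reads came at 25 °C, with 1.61, 1.97, 2.29 and 1.66 CPM in wild type and 1.495, 1.39, 1.83 and 1.63 CPM in mutants, with overlap (-0.22 ± 0.21, adjusted p = 0.556). The mutant count rose from 3 in sum to 95, a ratio of 30.8 with an interval of 10.2 to 151.9, and in wild type the rise was 2.53 ± 0.33 on the log2 scale. *xbx-1* passed the count filter only through the 25 °C libraries, so no p-value is given for its rise.

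All 13 IFT-B genes, which encode the particle that carries tubulin and cargo outward, were higher at 25 °C, beside 34.9% of all genes in wild type and 36.3% in mutants. The median was 2.38 in wild type and 2.82 in mutants, from 0.61 for *dyf-11* to 3.68 for *dyf-6* in wild type. Over the 9 that passed the count filter at 20 °C the medians were 2.37 and 2.47. Between strains 2 of the 9 tested were lower at 20 °C, *osm-5* and *ift-81*, beside 9.66% of all genes. At 25 °C 1 of the 13, *dyf-1*, was lower, beside 2.03%. *osm-5* (chromosome X, 2984263 to 2991478), a core subunit without which cilia are stunted, was at 3.31, 2.62, 3.07 and 2.35 CPM in wild type and 2.09, 1.54, 1.91 and 1.70 CPM in mutants at 20 °C. The libraries did not overlap, and the change was -0.67 ± 0.20 (adjusted p = 0.0262). This call was lost without replicate 1 or 3 of the wild type or replicate 2 or 4 of the mutants (adjusted p up to 0.0947) and under DESeq2 (0.0614). The 25 °C libraries gave 16.1, 14.2, 17.2 and 13.7 CPM in wild type and 10.5, 12.9, 10.9 and 12.2 CPM in mutants, without overlap, a change of -0.36 ± 0.099 that missed the threshold (adjusted p = 0.0536). It passed under DESeq2 (0.033), with upper-quartile scaling (0.0411), without a count filter (0.0319) and with all 16 libraries in 1 fit (0.0196). Its rise with the growth condition was 2.42 ± 0.13 in wild type and 2.73 ± 0.14 in mutants.

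The tubulin-binding subunit gene *ift-81* fell by 0.78 on the log2 scale in mutants at 20 °C, with an adjusted p of 0.049, and the call was lost on leaving out any of 7 of the 8 libraries, all but replicate 4 of the wild type (adjusted p up to 0.144). It was also lost under DESeq2 (0.138), under limma-voom (0.0509), without a count filter (0.0961), with the replicate number as a block (0.0595) and with all 16 libraries in 1 fit (0.0551). *dyf-1* (chromosome I, 4989548 to 4994675), whose product is needed for OSM-3 to join the trains, was at 15.1, 15.7, 14.7 and 15.4 CPM in wild type and 12.3, 12.7, 12.1 and 9.90 CPM in mutants at 25 °C, without overlap (-0.35 ± 0.090, adjusted p = 0.0401). The call was lost without replicate 1 or 2 of the wild type or replicate 1, 3 or 4 of the mutants (adjusted p up to 0.144), and with the replicate number as a block (0.0535). At 20 °C *dyf-1* overlapped between strains, at 3.67, 5.39, 4.04 and 3.98 CPM in wild type and 3.98, 3.58, 2.997 and 3.97 CPM in mutants (-0.24 ± 0.17, adjusted p = 0.343).

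*osm-1*, a peripheral subunit (chromosome X, 16540674 to 16551211), was the single gene of the 29 with a value above 0 at 20 °C. It was at 14.6, 11.3, 13.02 and 13.7 CPM in wild type and 15.9, 14.4, 15.2 and 15.5 CPM in mutants, with overlap (0.21 ± 0.091, adjusted p = 0.123). At 25 °C the values were 29.9, 27.3, 30.98 and 28.2 CPM and 26.01, 26.3, 28.6 and 23.8 CPM, again with overlap (-0.13 ± 0.069, adjusted p = 0.289). *osm-6*, a core subunit (chromosome V, 11924621 to 11927446), was at 1.51, 0.925, 0.973 and 1.12 CPM in wild type and 1.04, 0.740, 0.545 and 0.810 CPM in mutants at 20 °C, and at 5.50, 5.71, 6.39 and 6.15 CPM and 4.62, 3.71, 4.99 and 3.65 CPM at 25 °C. The strains overlapped at 20 °C and not at 25 °C, and *osm-6* was called at neither temperature (-0.54 ± 0.30 and -0.46 ± 0.14; adjusted p = 0.243 and 0.0761). With all 16 libraries in 1 fit the 25 °C change passed (0.0463). It rose with the growth condition by 2.38 ± 0.18 in wild type and 2.47 ± 0.23 in mutants.

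The largest fitted rises of the complex were those of *dyf-6* and *ift-74* in wild type and of *ift-74* and *dyf-13* in mutants, all 3 among the genes too low for the test at 20 °C. *dyf-6* (chromosome X, 10379693 to 10386508) went from 0.359, 0.308, 0.1497 and 0.816 CPM in wild type at 20 °C to 6.18, 4.25, 5.21 and 4.14 CPM at 25 °C, a rise of 3.68 ± 0.31 on the log2 scale, and its exons share 153 bases with a neighbouring gene. *ift-74* (chromosome II, 6680024 to 6683544), the partner of IFT-81 in tubulin binding, had 6, 3, 0 and 1 counts in the mutant libraries at 20 °C and 65, 78, 70 and 66 at 25 °C. Its rise was 3.55 ± 0.29 in wild type and 4.75 ± 0.34 in mutants. *dyf-13*, for another subunit, had 1, 1, 3 and 2 counts in the mutant libraries at 20 °C and 39, 50, 33 and 30 at 25 °C. Its rise was 4.35 ± 0.38, against 3.97 ± 0.33 for *dyf-6* in mutants. These 3 genes passed the count filter only through the 25 °C libraries, so no p-values are given for their rises. The other genes of the complex, *che-2*, *che-13*, *dyf-3* and *ift-20*, rose in wild type by between 1.84 and 2.96. Between strains, *che-2*, *che-13* and *dyf-3* were called at neither temperature. *dyf-13* and *ift-20*, not tested at 20 °C, were not called at 25 °C. Without a count filter *che-13* was called lower in mutants at 20 °C (-0.81, edgeR adjusted p = 0.0435). With all 16 libraries in 1 fit, *dyf-13* was called lower there (-1.81, adjusted p = 0.0284).

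The IFT-A genes gave some of the clearest differences between strains. IFT-A drives the return of the trains and brings membrane proteins into the cilium. Of its 3 tested genes 2, *daf-10* and *ifta-1*, were lower in mutants at 20 °C, beside 9.66% of all genes. *daf-10* (chromosome IV, 9136933 to 9146211) was at 4.02, 3.08, 2.39 and 3.26 CPM in wild type and 1.24, 1.36, 1.16 and 1.13 CPM in mutants, every mutant library below every wild-type library. The change was -1.38 ± 0.22 on the log2 scale, 2.60-fold lower and the largest fall called among the 40 at 20 °C (adjusted p = 0.000153). The 25 °C values were 16.1, 14.3, 18.5 and 16.2 CPM in wild type and 11.3, 13.3, 13.1 and 13.8 CPM in mutants, without overlap, a change of -0.31 ± 0.095 that missed the threshold (adjusted p = 0.0822). With all 16 libraries in 1 fit it passed (0.0463). The difference between the 2 effects was 1.04 ± 0.22 (interaction, adjusted p = 0.027). That call was lost without replicate 1 of the wild type at 20 °C, replicate 2, 3 or 4 of the mutants at 20 °C or replicate 4 of the mutants at 25 °C (adjusted p up to 0.087).

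*ifta-1* (chromosome X, 5545587 to 5552752) was at 6.25, 5.70, 5.99 and 6.73 CPM in wild type and 3.59, 3.15, 3.13 and 3.65 CPM in mutants at 20 °C, without overlap. The change was -0.87 ± 0.14 (1.83-fold lower, adjusted p = 0.000166), and the call held on leaving out any of the 8 libraries. In the 25 °C libraries it was at 16.5, 16.2, 20.002 and 13.8 CPM and 12.4, 14.99, 14.7 and 13.5 CPM, with overlap (-0.23 ± 0.11, adjusted p = 0.214). *che-11*, a core subunit (chromosome V, 12144244 to 12150707), was too low for the test at 20 °C, with 12, 5, 17 and 8 counts in the wild-type libraries and 5, 6, 1 and 2 in the mutant libraries. At 25 °C it had 182, 200, 191 and 161 counts in wild type and 156, 164, 124 and 135 in mutants. Its rise was 3.84 ± 0.20 in wild type and 5.33 ± 0.24 in mutants. *che-11* passed the count filter only through the 25 °C libraries, so no p-value is given for its rise. *dyf-2*, the fourth gene, rose by 1.30 and 1.42 and was called between strains at neither temperature.

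The 6 BBSome genes were all higher at 25 °C, beside 34.9% of all genes in wild type and 36.3% in mutants. The median rise was 2.89 in wild type and 3.504 in mutants, and 2.52 and 2.97 over the 4 that passed the filter at 20 °C. Of the 4 tested at 20 °C, *bbs-2* and *bbs-9* were lower in mutants, beside 9.66% of all genes. Their changes were -1.17 ± 0.38 and -0.90 ± 0.26 (edgeR adjusted p = 0.0353 and 0.0187). *bbs-2* was the single gene of the 11 whose libraries overlapped, at 1.65, 0.925, 0.823 and 1.22 CPM in wild type and 0.848, 0.432, 0.545 and 0.162 CPM in mutants. Its call was lost without replicate 1 or 4 of the wild type or replicate 2, 3 or 4 of the mutants (adjusted p up to 0.161) and under DESeq2 (0.0627), and that of *bbs-9* without replicate 4 of the wild type or replicate 2 or 3 of the mutants (up to 0.0865).

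*bbs-8* (chromosome V, 6762467 to 6765072) had the largest rise of the 39 genes tested in mutants and the largest fall of the 3 called between strains at 25 °C. At 20 °C it had 4, 1, 4 and 5 counts in the wild-type libraries and 1, 1, 1 and 0 in the mutant libraries, 14 against 3 in sum, a ratio of 5.46 with a counting interval of 1.52 to 29.6. When grown at 25 °C, wild type had 4.51, 4.69, 6.46 and 4.97 CPM and mutants 3.25, 3.15, 3.15 and 2.08 CPM, without overlap, a change of -0.80 ± 0.17 (1.74-fold lower, adjusted p = 0.0202). The call was lost without replicate 1 or replicate 4 of the mutants (adjusted p of 0.053 and 0.0795), and replicate 4 was the lowest library. In wild type the rise was 4.16 ± 0.30 on the log2 scale, and in mutants the summed count went from 3 to 175, a ratio of 56.7 with an interval of 19.1 to 277.5. *bbs-1*, *bbs-5* and *osm-12* rose in wild type by 3.07, 2.24 and 2.76. Between strains, *bbs-5* and *osm-12* were called at neither temperature, and *bbs-1*, not tested at 20 °C, was not called at 25 °C. At 20 °C *bbs-1* was called lower in mutants without a count filter (-1.33, edgeR adjusted p = 0.0116) and with all 16 libraries in 1 fit (-1.34, adjusted p = 0.018). *bbs-1* was called lower at 25 °C under DESeq2 (0.0312), without a count filter (0.022), with the replicate block (0.0451) and with all 16 libraries in 1 fit (0.0281). *bbs-5* was at 2.44, 1.46, 2.17 and 1.43 CPM in wild type and 1.17, 2.04, 1.43 and 2.03 CPM in mutants at 20 °C, and at 9.21, 8.56, 10.6 and 7.67 CPM and 6.18, 7.62, 6.16 and 6.38 CPM at 25 °C, with an interaction of -0.24 ± 0.27 (adjusted p = 0.724).

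**Figure D4:**
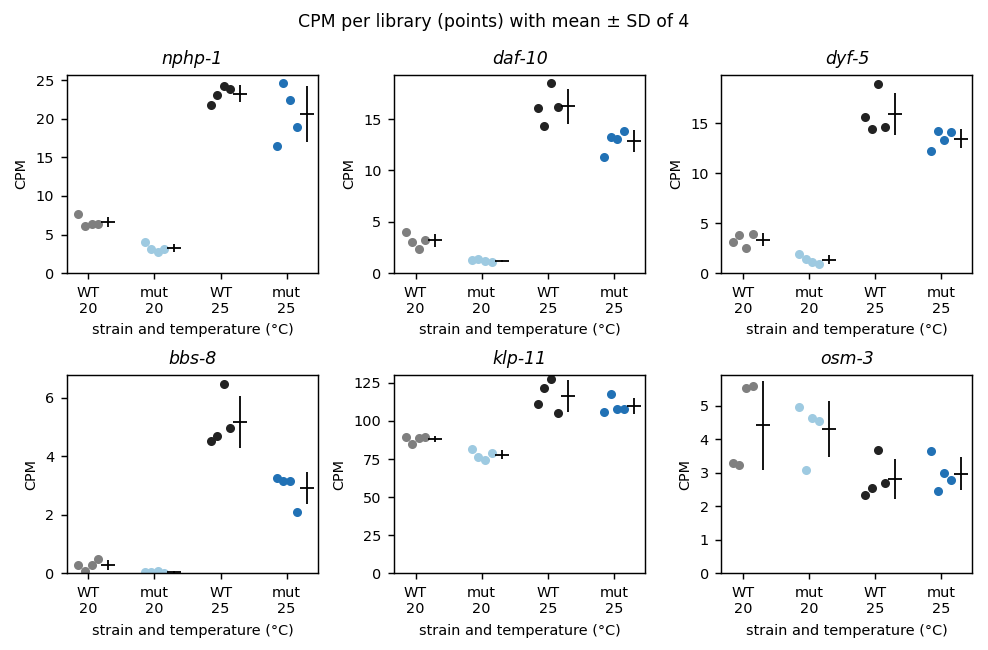
CPM of 6 genes in each library (points, 4 per group) with the mean ± SD beside them, for wild type (WT) and mutants (mut) at 20 °C and 25 °C. *nphp-1*, *daf-10* and *dyf-5* are lower in mutants at 20 °C without overlap, *bbs-8* is lower in mutants at 25 °C, *klp-11* changes by less than 2-fold, and *osm-3* is lower at 25 °C with overlap.

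Of the 7 transition zone genes, 2 of the 5 tested were lower in mutants at 20 °C, beside 9.66% of all genes. They were *nphp-1* and *mks-5*, both about 2-fold. *nphp-1* (chromosome II, 10648893 to 10652256), for a gate protein of the nephrocystin module, had the smallest adjusted p of the 29 genes tested at 20 °C. It was at 7.62, 6.17, 6.36 and 6.32 CPM in wild type and 4.05, 3.08, 2.79 and 3.08 CPM in mutants at 20 °C, without overlap (-1.03 ± 0.15, 2.04-fold lower, adjusted p = 5.94e-05). At 25 °C the values were 21.8, 23.02, 24.2 and 23.9 CPM and 16.5, 24.6, 22.4 and 18.96 CPM, with overlap (-0.15 ± 0.10, adjusted p = 0.414). The interaction was 0.85 ± 0.19 (adjusted p = 0.0293) and was lost without replicate 1 of the wild type at 20 °C, without replicate 2, 3 or 4 of the mutants at 20 °C and without replicate 2 or 3 of the mutants at 25 °C (adjusted p up to 0.0893).

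*mks-5*, the scaffold on which the gate is assembled (chromosome II, 10720231 to 10729329), was at 5.10, 5.55, 3.59 and 5.30 CPM in wild type and 3.20, 2.41, 1.77 and 2.35 CPM in mutants at 20 °C, without overlap (-1.001 ± 0.19, 2.001-fold lower, adjusted p = 0.000865). At 25 °C it was at 19.6, 19.03, 21.5 and 16.99 CPM and 14.2, 16.1, 17.8 and 17.4 CPM, with overlap (-0.21 ± 0.092, adjusted p = 0.188), and the interaction missed the threshold (0.75 ± 0.21, adjusted p = 0.0729). It passed under DESeq2 (0.0147) and without a count filter (0.0115). *mksr-2*, for a B9-domain protein of the gate (chromosome IV, 2304292 to 2306547), was lower in mutants at 25 °C, at 5.56, 6.09, 5.97 and 4.56 CPM in wild type against 2.67, 3.78, 3.37 and 4.30 CPM, without overlap (-0.63 ± 0.16, adjusted p = 0.0422). This call held on leaving out replicate 4 of the wild type and was lost on leaving out any of the other 7 libraries (adjusted p up to 0.144) and with the replicate number as a block (0.0606). At 20 °C the strains overlapped for *mksr-2*, at 1.22, 0.925, 0.674 and 1.12 CPM and 0.783, 0.555, 0.272 and 0.486 CPM (-0.89 ± 0.35, adjusted p = 0.0904). With the growth condition the 7 genes rose by between 1.78 for *nphp-4* and 2.80 for *mks-6* in wild type, and by between 1.87 for *nphp-4* and 3.77 for *mks-1* in mutants. Over the 5 that passed the count filter at 20 °C the medians were 1.99 and 2.77.

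The last 3 genes act along the ciliary shaft. *dyf-5* (chromosome I, 9359067 to 9364238) encodes a kinase that limits cilium length and helps OSM-3 dock. It was at 3.09, 3.85, 2.54 and 3.87 CPM in wild type and 1.89, 1.42, 1.16 and 0.892 CPM in mutants at 20 °C, without overlap (-1.28 ± 0.23, 2.44-fold lower, adjusted p = 0.000522). At 25 °C it was at 15.6, 14.5, 18.96 and 14.6 CPM and 12.2, 14.2, 13.3 and 14.1 CPM, without overlap, a change of -0.21 ± 0.098 that missed the threshold (adjusted p = 0.211). The interaction was 1.03 ± 0.24 (adjusted p = 0.036), and it was lost on leaving out 11 of the 16 libraries, all but replicate 3 of the wild type at either temperature, replicate 4 of the wild type at 25 °C and replicate 1 of the mutants at either temperature (adjusted p up to 0.104), and with the replicate number as a block (0.0573). Its exons share 140 bases with the neighbouring gene *ppfr-1*.

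*tba-5*, an alpha-tubulin of the ciliary axoneme (chromosome I, 8353382 to 8358273), was close to absent from the 20 °C libraries. It had 0, 0, 1 and 0 counts in wild type and 1, 2, 2 and 3 in mutants at 20 °C, against 29, 36, 31 and 24 and 14, 20, 21 and 8 at 25 °C. In wild type the sum went from 1 to 120 counts, a ratio of 98.8 with a counting interval of 17.4 to 3933. Between strains at 20 °C the sums were 1 in wild type and 8 in mutants, a ratio of 6.84 with an interval of 0.917 to 303.5, which includes no difference. The 25 °C libraries held 1.79, 2.28, 2.15 and 1.66 CPM in wild type and 0.910, 1.26, 1.54 and 0.521 CPM in mutants, without overlap. That change was -0.88 ± 0.28 and missed the threshold (adjusted p = 0.0897). It passed with all 16 libraries in 1 fit (0.0474). *arl-13*, the gene of a small GTPase of the ciliary membrane, rose by 2.12 in wild type and 2.09 in mutants and was called between strains at neither temperature.

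A second list of 31 ciliary genes outside the 40, such as those for other transition zone, BBSome and IFT proteins, was counted against the same shares of all genes tested. At 20 °C 10 of 21 tested were lower in mutants, beside 9.66% of all genes, and 0 higher, with a median of -0.42. At 25 °C 1 of 28 was lower, beside 2.03%, and 0 higher, with a median of -0.19. The 2 called falls above 2-fold at 20 °C were in *rab-28*, for a GTPase that travels with the trains (-1.36, adjusted p = 0.00343), and *tub-1*, for a Tubby protein at the ciliary base (-1.34, adjusted p = 0.00766). With the growth condition 25 of 27 rose in wild type, beside 34.9% of all genes (median 2.03), and 24 of 26 in mutants, beside 36.3% (median 2.08), with 0 called lower in either. Only 21 of the 31 passed the count filter at 20 °C, so some of these had to differ. Of the 18 motor and tubulin genes that all cells use, 4 were higher at 25 °C and 11 lower in wild type, where 31.3% of all genes were lower (median -0.17) and 5 higher and 12 lower in mutants, and between strains at 20 °C 1 of 17 was higher and 3 lower. Genes of sensory signalling, receptors and channels that work in cilia, were called between strains at neither temperature (0 of 6 and 0 of 12 tested). With the growth condition 7 of 10 tested rose in wild type and 8 of 10 in mutants. Only 6 of these 20 genes passed the count filter at 20 °C, so again some had to differ.

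Markers of tissue and stage were counted in the same comparisons. Over all genes tested, 34.9% were higher and 31.3% lower with the growth condition in wild type, 7.65% higher and 9.66% lower between strains at 20 °C, and 2.09% higher and 2.03% lower at 25 °C. With the growth condition in wild type, 16 of 18 neuron markers were higher and 1 lower (median 1.34), and 11 of 12 muscle markers were higher (median 1.89). Of the pharynx and amphid glia markers tested, 7 of 7 and 6 of 7 were higher (medians 3.96 and 1.57). Only 3 of the 8 pharynx markers passed the count filter at 20 °C, so some of these had to differ. The neuron, muscle, amphid glia and intestine lists also had fewer genes tested at 20 °C (16, 11, 6 and 7). Of the maternal markers tested, 15 of 21 were lower and 2 higher (median -0.54), and 13 of 13 tested early zygotic markers were lower (median -0.43). Intestine markers had 6 of 10 tested higher and 2 lower, and epidermis markers 9 of 11 higher and 1 lower. Between strains at 20 °C, 8 of 11 tested muscle markers were lower in mutants (median -0.63), as were 4 of 16 neuron markers (median -0.070), 6 of 11 epidermis markers with 2 higher, 3 of 21 maternal markers with 1 higher, 1 of 6 amphid glia markers, and 1 of 7 intestine markers with 2 higher. At 25 °C the same lists had 2 of 12, 1 of 18, 0 of 11, 0 of 21 with 4 higher, 1 of 7 and 1 of 10 lower, and 1 of 7 tested pharynx markers was lower.

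**Figure D5:**
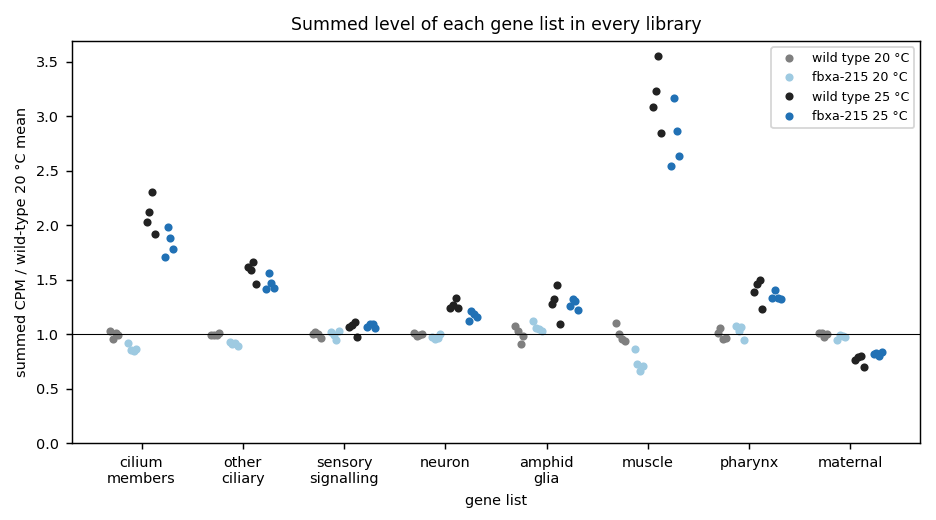
Summed CPM of each gene list in each of the 16 libraries (points), divided by the mean of the wild-type libraries at 20 °C. The cilium and muscle lists are highest at 25 °C and lower in mutants than in wild type at 20 °C without overlap, the neuron and sensory signalling lists move less, and the maternal list is lower at 25 °C.

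The summed neuron markers were 753 ± 9.55 CPM in wild type and 736 ± 13.5 CPM in mutants at 20 °C, and 957 ± 32.5 and 882 ± 29.5 CPM at 25 °C. A sum follows the most abundant genes of its list. The median neuron marker rose by 1.34 on the log2 scale with the growth condition in wild type, more than the sum did. Muscle markers summed to 375 ± 28.3 and 278 ± 32.2 CPM at 20 °C and to 1191 ± 109.9 and 1051 ± 105 CPM at 25 °C. A stage score, the mean log2(CPM + 0.5) of the muscle and pharynx markers minus that of the maternal markers, ran from -3.28 to -3.08 in wild type and -3.53 to -3.21 in mutants at 20 °C, with overlap, and from -1.09 to -0.89 and -1.43 to -1.15 at 25 °C, without overlap. A neuron score, the mean log2(CPM + 0.5) of the neuron markers, ran from 2.97 to 3.11 and 2.89 to 2.94 at 20 °C, without overlap, and from 4.16 to 4.36 and 4.001 to 4.17 at 25 °C.

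The falls between strains were not called when either score entered the fit. With the stage score as a covariate, 0 of 29 cilium genes were called at 20 °C (edgeR; 5 at an unadjusted p under 0.05), the median went from -0.54 to -0.28, and the genes called over the whole table went from 1813 to 278 of 10471, *fbxa-215* included. With the neuron score, 0 were called (8 at an unadjusted p under 0.05), with a median of -0.26 and 274 genes over the whole table. The 11 genes called lower at 20 °C stayed below 0 in both fits, some with much the same size. With the stage score *ifta-1* was at -0.79 against -0.87 (adjusted p = 0.0592), *ift-81* at -0.68 against -0.78 and *bbs-2* at -0.30 against -1.17. With the neuron score *dyf-5* was at -1.14 against -1.28 (adjusted p = 0.115), *nphp-1* at -0.84 against -1.03 (adjusted p = 0.0685) and *che-3* at -0.38 against -0.99. At 25 °C the stage score left 0 of 40 called (2 at an unadjusted p under 0.05), a median of -0.038 and 14 genes over the whole table. The neuron score left 0 lower and 1 higher, *daf-19*, a median of -0.10 and 655 genes over the whole table. The scores differed between the strains themselves, so a score and the strain cannot be fully separated in 8 libraries.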

How the data were processed

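Polyadenylated RNA of whole mixed-stage embryos was sequenced in 16 non-directional libraries as pairs of 150 bases. Per the labels, reads were trimmed with Trimmomatic (v0.39) and quantified with Salmon (v1.5.1) for the build WBcel235, and the authors deposited estimated counts per gene in a table for each temperature. Of these estimated counts, 29.6% were not whole, and all were rounded before fitting. The authors also deposited DESeq2 tables with base means, fold changes and adjusted p-values, which were not used, and log2 values per library, of which only the names, chromosomes and column identities were used.

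CPM were computed on TMM-scaled totals of all 16 libraries, and TPM from counts per exon union of the Ensembl 115 annotation. Strains were compared within a temperature, and temperatures within a strain, on 8 libraries in edgeR (v4.0.16, under R v4.3.3) by its quasi-likelihood F test, without covariates, once filterByExpr and TMM had been applied, and the interaction on all 16. P-values were adjusted by Benjamini-Hochberg over all genes tested, and *fbxa-215* was left out of the background shares. The standard error was derived from the F statistic. The fits were tested on simulated counts with known changes. Counting intervals were exact binomial intervals on summed counts, made for genes with a group total of at most 3 counts. They cover counting error only, since PCR copies are not independent molecules. Reads of overlapping genes were not told apart: the spans of 22 of the 40 genes overlap another coding gene, and 18 share exon bases.

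The fits were repeated with limma-voom (v3.58.1) and with DESeq2 (v1.42.0), with upper-quartile or RLE scaling, 2 count filters, a fold minimum of 2, a replicate block, all libraries in 1 fit, covariates for stage and neurons, and leaving out each library. Values per library were given for up to 4 genes per direction with the smallest adjusted p between strains or in the interaction, the 4 largest changes per direction between temperatures, and *daf-19*, *osm-3*, *che-3*, *osm-5*, *osm-6*, *tba-5* and *mks-5*. *bbs-2* and *klp-11* were added after their values were seen, and the counts of *dyf-13* were also given outside this rule. The members and the gene lists were chosen with earlier results of these data known. Of 229 list genes, 2 were not matched. The labels do not say whether replicate numbers pair the libraries, and the main fits did not pair them.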

Additional observations from a re-analysis of the deposited data

Results flagged for a closer look

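A library stood apart from the other 3 of its group, by Dixon's test at 95%, in 10 of the 164 sets of 4 values examined, where chance alone gives about 1 in 20, or 8.2. In wild type at 20 °C these were *nphp-1* in replicate 1 at 7.62 CPM, the highest, *klp-11* in replicate 2 at 84.8 CPM, the lowest, and *tba-5* in replicate 3 at 0.0748 CPM, which is a single count where the other libraries had 0. In mutants at 20 °C they were *bbs-8* in replicate 4 at 0 CPM, *mks-1* in replicate 3 at 0.545 CPM, the highest, and *klp-20* in replicate 4 at 58.8 CPM, the highest. In mutants at 25 °C they were *bbs-5* in replicate 2 at 7.62 CPM and *klp-11* in replicate 2 at 118 CPM, both the highest, and *bbs-8* in replicate 4 at 2.08 CPM and *kap-1* in replicate 1 at 34.2 CPM, both the lowest. Without replicate 1 of the wild type, *nphp-1* was still called lower in mutants at 20 °C, with a log2 fold change of -0.95.

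The strain effect differed between temperatures in 3 genes by the interaction test of edgeR. The effect at 25 °C minus that at 20 °C was 1.04 ± 0.22 on the log2 scale for *daf-10* (SE, adjusted p = 0.027), 1.03 ± 0.24 for *dyf-5* (adjusted p = 0.036) and 0.85 ± 0.19 for *nphp-1* (adjusted p = 0.0293). All 3 fell in mutants at 20 °C and were not called at 25 °C. Over the alternatives other than leaving out a library the values kept their sign, and the adjusted p was above 0.05 for the 3 genes under limma-voom (0.0692, 0.0719 and 0.0671) and for *dyf-5* with the replicate block (0.0573).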

How the results depend on the processing

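The changes with the growth condition kept their direction and their call in the fits tried, for all 40 genes in wild type and 39 in mutants, with *osm-3* the exception on leaving out libraries. A filter of at least 10 counts in every library left 26 genes in wild type and 23 in mutants, and all of them were called. The strain counts moved more. At 20 °C, 11 became 5 with a fold above 2, 18 with all 16 libraries in 1 fit, and 0 with the stage score or 0 with the neuron score as a covariate. At 25 °C, 3 became 0 with a fold above 2, 5 with DESeq2, 6 without a count filter, 8 with all 16 libraries and 0 with the stage score. With the neuron score 0 were called lower and 1 higher, *daf-19*. The interaction count of 3 became 6 with DESeq2, 6 without a count filter and 0 with limma-voom.

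Leaving out 1 library gave 8 to 16 genes at 20 °C, 0 to 6 at 25 °C, 39 to 40 for the growth condition in wild type, 38 to 40 in mutants and 0 to 5 for the interaction. Over all genes the same fits gave 1217 to 1691 calls at 20 °C, 133 to 844 at 25 °C and 19 to 420 for the interaction. The median strain change at 20 °C was -0.79 without a count filter and -0.30 with at least 10 counts in every library, which leaves 23 of the 40.

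Values that changed sign belonged to genes that were not called in the main fits. Of these, *daf-19* at 25 °C was called higher in mutants with the neuron score (edgeR adjusted p = 0.0373). With the stage score, *daf-19* was 0.086 and *osm-6* 0.046 at 20 °C, and *daf-19* was 0.26, *che-3* 0.35 and *tba-5* 0.059 at 25 °C. With the neuron score, *daf-19* was 0.025, *osm-3* 0.014 and *osm-6* 0.0051 at 20 °C, and *daf-19* 0.24 and *che-3* 0.36 at 25 °C. On leaving out 1 library, *daf-19* ranged from -0.035 to 0.018 at 20 °C and -0.11 to 0.011 at 25 °C, *osm-3* from -0.16 to 0.11, -0.0053 to 0.26 and, for the interaction, -0.023 to 0.29, and the interaction of *osm-6* from -0.14 to 0.23. The cause of these shifts was not tested.

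With the replicate block, 10 cilium genes were called at 20 °C, 2 at 25 °C, 40 and 39 for the growth condition and 2 for the interaction. The block lost *ift-81* at 20 °C (0.0595), *dyf-1* (0.0535) and *mksr-2* (0.0606) at 25 °C and the interaction of *dyf-5* (0.0573), and called *bbs-1* lower at 25 °C (0.0451). No correlation of same-numbered libraries passed 0.1 in any comparison. At 20 °C each mutant library still correlated best with the wild-type library of its own number (r from 0.019 to 0.079), and in the other comparisons most did not. Over all genes at 20 °C, the block called 1996 of 10471, against 1813 without it. Whether the libraries were paired at 20 °C is therefore not settled.

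RLE and upper-quartile scaling changed no direction among the genes named, and the median of all genes moved by less than 0.1 under each. The 11 genes too low for the test at 20 °C rest on few counts. Without a count filter 27 of the 40 had an unadjusted p under 0.05 at 20 °C, against 18 of the 29. The search of promoters for the X box was not run, since no promoter sequence was used here.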
